A study of Mus musculus with 10 samples.

Results

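The H3K27me3 peaks on chromosome 6 of 5 mouse lymphoma lines are described here, with the place along the chromosome of the peaks that the parental line held in excess and the genes that carried them. The members were all distinct peaks that each line's deposited list placed on chromosome 6, 7120 of the 74261 peaks in all. The parental line had 1310 of its 10778 peaks there, R100 2366 of 25180, R500 1927 of 21888, R1000 842 of 9595 and R4000 675 of 6820. Chromosome 6 was singled out because it held a larger share of the parental list than any other chromosome, so that share and the excess derived from it are a description and not a test.

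The parental line came from a B-cell lymphoma of a C57BL/6J mouse that carries the Eµ-Myc transgene, in which the immunoglobulin heavy chain enhancer drives Myc in B cells, and that lacks Cdkn2a. All 5 lines share this transgene and deletion. R100, R500, R1000 and R4000 were selected from it in rising doses of mafosfamide, an alkylating agent related to cyclophosphamide, and were harvested at 100, 500, 1000 and 4000 nM after 10, 18, 23 and 37 days. Chromatin for ChIP-seq was taken from cells growing without the drug. Each line was represented by 1 list of peak positions in mm9, with no height, score or read count, so the depth behind each list is unknown and no difference between lines was tested. Every resistant line goes back to the same parental line, and differences between the lists cannot be told apart from differences between libraries.

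H3K27me3 is the trimethylation of lysine 27 of histone H3, which is placed by polycomb repressive complex 2 (PRC2) through its catalytic subunit Ezh2. The mark is known for broad domains over silent developmental genes such as the Hox clusters, and for repression of genes of other lineages. Chromosome 6 carries the Hoxa cluster, the immunoglobulin kappa light chain locus, a block of receptor genes of natural killer and myeloid cells, and Ezh2 itself.

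Of the sequences under these peaks, 5 are shown to let the 2 kinds of peak that matter here be compared. The first 3 are the centres of the widest parental peaks without a resistant counterpart in the 3 bins of 1 Mb with the largest parental excess, and the others come from wide peaks present in all 5 lines. Bases are on the plus strand of mm9, with each CpG dinucleotide in capitals.
Distal kappa locus, parental line only, chr6:68409926-68410225: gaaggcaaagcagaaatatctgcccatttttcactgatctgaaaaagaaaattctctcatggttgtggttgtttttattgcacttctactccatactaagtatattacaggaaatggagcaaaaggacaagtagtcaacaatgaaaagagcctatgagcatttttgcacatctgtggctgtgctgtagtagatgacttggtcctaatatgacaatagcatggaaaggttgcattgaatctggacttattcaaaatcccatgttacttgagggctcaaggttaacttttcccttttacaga
Between Hoxa and Tax1bp1, parental line only, chr6:52638451-52638750: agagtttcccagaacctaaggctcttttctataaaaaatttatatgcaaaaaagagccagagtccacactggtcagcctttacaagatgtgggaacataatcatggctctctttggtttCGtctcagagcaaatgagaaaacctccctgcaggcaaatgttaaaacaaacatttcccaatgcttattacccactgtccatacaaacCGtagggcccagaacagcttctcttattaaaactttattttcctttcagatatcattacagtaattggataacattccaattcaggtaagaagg
Bin of 4921507P07Rik, parental line only, chr6:50880401-50880650: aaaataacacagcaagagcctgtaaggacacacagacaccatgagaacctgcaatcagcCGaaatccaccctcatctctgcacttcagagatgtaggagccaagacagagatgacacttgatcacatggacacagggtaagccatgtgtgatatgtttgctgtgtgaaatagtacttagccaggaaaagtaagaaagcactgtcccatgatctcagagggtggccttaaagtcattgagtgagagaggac
Hoxa7, region in all 5 lines, chr6:52166551-52166850: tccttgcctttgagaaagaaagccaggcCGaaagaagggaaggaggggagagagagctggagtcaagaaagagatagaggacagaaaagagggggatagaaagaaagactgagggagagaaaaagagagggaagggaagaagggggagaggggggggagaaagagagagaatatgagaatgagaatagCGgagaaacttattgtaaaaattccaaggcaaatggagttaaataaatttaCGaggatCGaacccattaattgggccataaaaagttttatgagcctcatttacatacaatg
Widest parental peak, kappa locus, all 5 lines, chr6:68164651-68164950: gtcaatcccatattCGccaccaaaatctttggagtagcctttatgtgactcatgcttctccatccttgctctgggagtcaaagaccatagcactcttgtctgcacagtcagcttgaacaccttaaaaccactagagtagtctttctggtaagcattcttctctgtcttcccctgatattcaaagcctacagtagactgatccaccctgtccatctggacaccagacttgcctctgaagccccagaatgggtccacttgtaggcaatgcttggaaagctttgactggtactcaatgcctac
The 3 parental windows held 0, 2 and 1 CpG dinucleotides and had GC contents of 37.7, 38.3 and 46.0%. The window in Hoxa7 held 4 CpG at a GC content of 43.0%, with 108 of its 300 bp in an exon. The parental, R500 and R1000 peaks covered all of it, R4000 covered 250 bp and R100 100 bp. The kappa window present in all 5 lines held 1 CpG at a GC content of 47.0%. It was thus no richer in CpG than the parental windows. No exon of the annotation overlaps any window but that in Hoxa7. The widest parental peak of the chromosome, shown last, was chosen after its width was seen.

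The parental line placed 12.2% of its peaks on chromosome 6 (95% Wilson interval 11.6 to 12.8%). R100 placed 9.40% there, R500 8.80%, R1000 8.78% and R4000 9.90%. By number, R100 and R500 still had more peaks on the chromosome than the parental line, and the excess concerns the share of a list. In covered length the parental line had 218.65 kb, R100 486 kb, R500 406.6 kb, R1000 161.85 kb and R4000 124 kb. The parental share of covered bases was 13.4%, with 9.65, 8.97, 10.04 and 11.6% in the resistant lines in rising order of dose. Chromosome 6 ranked first of the chromosomes by share in the parental line, second in R100 and number 3 in each of the other lines, so it was among the most densely marked in every list.

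The excess was expressed as a surplus, the parental peaks in a bin or gene less the number expected if the parental list had the mean share of the 4 resistant lists there. All chromosome 6 peaks gave 316 surplus peaks, with 994 expected. The number was 194 for peaks at least 100 bp wide and 199 with peaks within 1000 bp joined. Chromosome 1 came next with 144, and chromosome 11 stood at the other end with -229. Relative to the expected number, the parental share was 1.32 times the mean resistant share on chromosome 6 and 1.30 times on chromosome 16, so the ratio set chromosome 6 apart far less than the number of peaks did. Since the surplus is relative to list totals, it sums to near 0 over the genome.

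Cut into 150 bins of 1 Mb, chromosome 6 had a surplus above 0 in 63 bins (42.0%), below 0 in 43 and exactly 0 in 44. Over all bins of the genome 26.0% had a surplus above 0. A surplus of at least 10 peaks was seen in 11 bins of chromosome 6 (7.33%), against 1.59% of bins genome-wide. The parental line had more peaks than each of the resistant lists in 8 bins (5.33%), against 3.96% of all bins. They include the Hoxa bin and the distal kappa bin. This share of 5.33% lay near the background. Its interval of 2.73 to 10.2% covers counting error only and is not a test, since neighbouring bins are dependent.

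**Figure D1:**
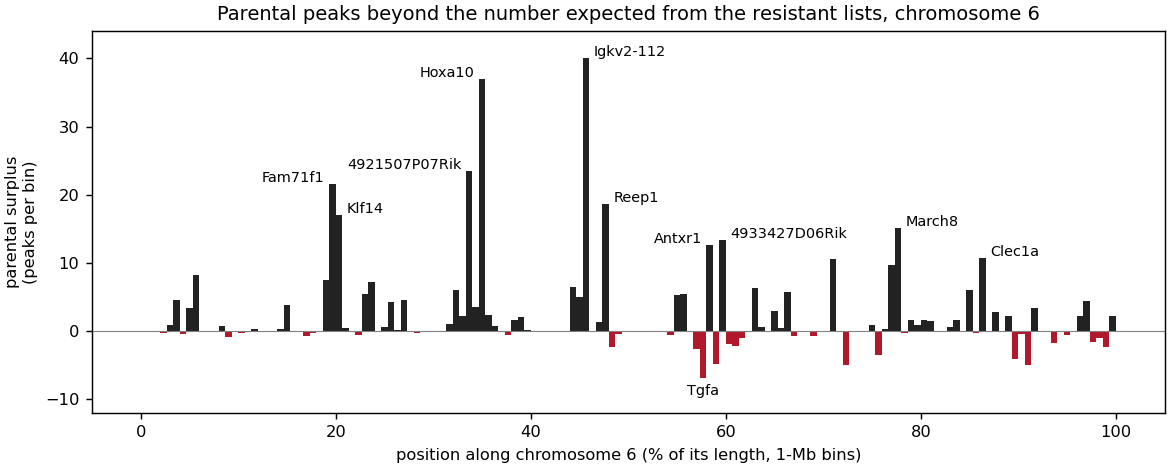
Parental surplus (peaks per bin of 1 Mb, vertical axis) against position along chromosome 6 in percent of its length. Bars above 0 (black) are bins where the parental list held more peaks than expected from the resistant lists and bars below 0 (red) fewer, and the tallest are the distal kappa bin (Igkv2-112) at 40.1 and the Hoxa bin (Hoxa10) at 36.9.

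The surplus was unevenly spread. The 10 bins with the largest values held 209 of the 373 peaks of summed positive surplus (56.2%), and the first 3 held 100 (26.9%). A total of 9 bins was needed to reach 50% and 23 bins to reach 80%. On the other chromosomes, the 10 bins with the largest values held from 49.3% (chromosome 7) to 93.5% (chromosome 15). Chromosome 6 was thus within their range and near its low end, so the uneven spread is not particular to it. On chromosome 6, bins below 0 summed to only -56.3 peaks. Without the top 10 bins, the surplus was 107 peaks, and the parental share of the list on the rest of the chromosome was 7.26%, against 6.76, 6.17, 5.76 and 6.36% in R100, R500, R1000 and R4000. The bins were picked on the surplus itself, so a smaller remainder follows from the choice.

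The bin from 68 to 69 Mb had the largest surplus of all bins in the genome. It covers the distal part of the variable segments of the kappa light chain, whose recombination is a step of B-cell development. The parental line had 66 peaks there, R100 27, R500 45, R1000 30 and R4000 23. The parental number was the highest and the R4000 number the lowest, with R100 close to R4000 although its list was the longest. Per 1000 peaks of the list the parental line had 6.12, R100 1.07, R500 2.06, R1000 3.13 and R4000 3.37. By share R4000 was thus the highest of the resistant lines and R100 the lowest. Of the parental peaks, 44 (66.7%) overlapped no resistant peak, against 52.9% on the whole chromosome and 46.1% over the genome.

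Over the whole kappa locus, 106 segments from 67505630 to 70676751, the parental line had 90 peaks, R100 82, R500 91, R1000 53 and R4000 33. The peaks fell into a pair of stretches. The distal stretch, from 67520701 to 68492350 with 26 segments, had 72 parental peaks and 41, 53, 31 and 24 in R100, R500, R1000 and R4000, a surplus of 42.9. The stretch near the joining and constant segments, from 69810901 to 70676650, had 18 parental peaks and 41, 38, 22 and 9 in the resistant lines, a surplus of -0.799. Between them lay 1318.55 kb with 41 variable segments, Igkv12-98 to Igkv12-41, where no line had a peak. The kappa surplus therefore came from its distal stretch. How many reads could be placed uniquely in this locus is not given in the sources used here.

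Most of these peaks lay between segments. Only 13 of the 145 antigen receptor segments of chromosome 6 (8.97%) held a parental peak in the segment or the 5 kb before it. Of the protein-coding genes of the chromosome 19.6% held a parental peak. The 39 segments of the T-cell receptor beta locus held no peak in any line. The segment with most parental peaks was Igkv2-112, with 6, 3, 3, 6 and 4 peaks in the parental line, R100, R500, R1000 and R4000. Next came 3 segments with 2 parental peaks each. Igkv15-103 had 0, 0, 2 and 0 in the resistant lines, Igkv12-41, whose peaks lay upstream of the segment and outside the stretch without peaks, had none, and the constant segment Igkc had 5, 5, 5 and 3.

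The widest parental peak of the chromosome, 2900 bp from 68163351 to 68166250, lay 3725 bp upstream of Igkv2-112. R100 covered 1950 bp of it, R500 2050 bp, R1000 2000 bp and R4000 1750 bp. It overlaps no annotated gene. In a search against the protein-coding transcripts, 69.7% of its bases aligned to Cttn, which encodes the actin-binding protein cortactin and lies on chromosome 7, with 86.5% identity over the best alignment of 1211 bp. The last sequence above is part of it. Of the 83 parental peaks of at least 500 bp on the chromosome, 3 had a match of at least 200 bp to a transcript of another chromosome. The others were a peak at Hoxa10 matching Hoxc10 over 249 bp and a peak of 500 bp at Tlx2 matching Tlx3 over 237 bp, both members of the same homeobox families. At Cttn itself the parental line, R1000 and R4000 had 0 peaks, R100 had 2 and R500 had 1.

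The bin from 52 to 53 Mb, with the Hoxa cluster of homeobox regulators of the body axis, had the second largest surplus of the genome, 36.9 peaks. The cluster itself, up to and including Evx1, had a surplus of 17.7, and the remainder lay elsewhere in the bin. The whole bin held 137 parental peaks, and R100 had 135, R500 134, R1000 104 and R4000 101. Per 1000 peaks of the list the parental line had 12.7, R100 5.36, R500 6.12, R1000 10.8 and R4000 14.8. R4000 thus stood above the parental line, and the surplus here came from the low shares of the longer R100 and R500 lists. Only 32 of the parental peaks (23.4%) overlapped no resistant peak, the lowest share among the 10 bins.

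Within the cluster, taken up to and including Evx1, counts of peaks and covered length ran in different orders. The parental line had 99 peaks over 40.9 kb, R100 had 79 over 61.9 kb and R500 87 over 60.8 kb. R1000 had 92 peaks over 35.55 kb and R4000 92 over 28.75 kb. R100 and R500 thus covered the cluster in fewer and wider peaks, up to 4950 and 4900 bp, against a parental 2800 bp. In length the parental line thus lay below R100 and R500 in the cluster. As a share of each list's covered bases, the whole bin still had a parental surplus of 13224 bp.

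The Hoxa list has 13 entries, which include Hoxa3 under 2 identifiers and Evx1, a homeobox gene beside the cluster. Of these entries, 8 had a surplus above 0 (61.5%) and 5 below (38.5%), with a median of 1.05. Over the 1171 protein-coding genes of the chromosome 13.7% were above 0 and 36.7% below, with a median of 0. Hoxa7 had 14 parental peaks and 8, 8, 10 and 17 in R100, R500, R1000 and R4000. Hoxa10 had 15 and 6, 8, 15 and 19, and Hoxa11 had 10 and 3, 3, 11 and 10. Hoxa9 had 12 and 5, 7, 14 and 17, and Hoxa13 had 9 and 6, 6, 9 and 9. At Hoxa10, Hoxa11 and Hoxa13 the parental numbers thus lay near those of R1000 and R4000. At Hoxa7 the parental number lay between those of R1000 and R4000, and at Hoxa9 below both. Hoxa4 had no peak in the parental line, R1000 or R4000 and 2 each in R100 and R500.

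The widest region with a peak in all 5 lines, 8150 bp from 52164851 to 52173000, spans Hoxa7 and a noncoding RNA, with 2516 exonic bp. The sequence in Hoxa7 above is from its widest parental peak, 1700 bp, of which R100 covered 1500 bp, R500 and R1000 1700 bp and R4000 1050 bp. Another wide parental peak, 2800 bp from 52201801 to 52204600, lay 5588 bp upstream of Hoxa11, and the resistant lines covered 2650, 2700, 2500 and 2400 bp of it in order of dose.

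Jazf1, which encodes a zinc finger protein and lies beside the Hoxa cluster, had the largest surplus of any protein-coding gene on the chromosome, 12.6 peaks. It held 18 parental peaks, and R100 had 23, R500 14, R1000 3 and R4000 1. These peaks were narrow, and the parental ones covered 2050 bp and that of R4000 50 bp. In the same bin the widest parental peak without a resistant counterpart, 400 bp from 52638401 to 52638800, lay 24923 bp upstream of Tax1bp1, an autophagy receptor gene. Its central 300 bases are the second sequence shown.

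**Figure D2:**
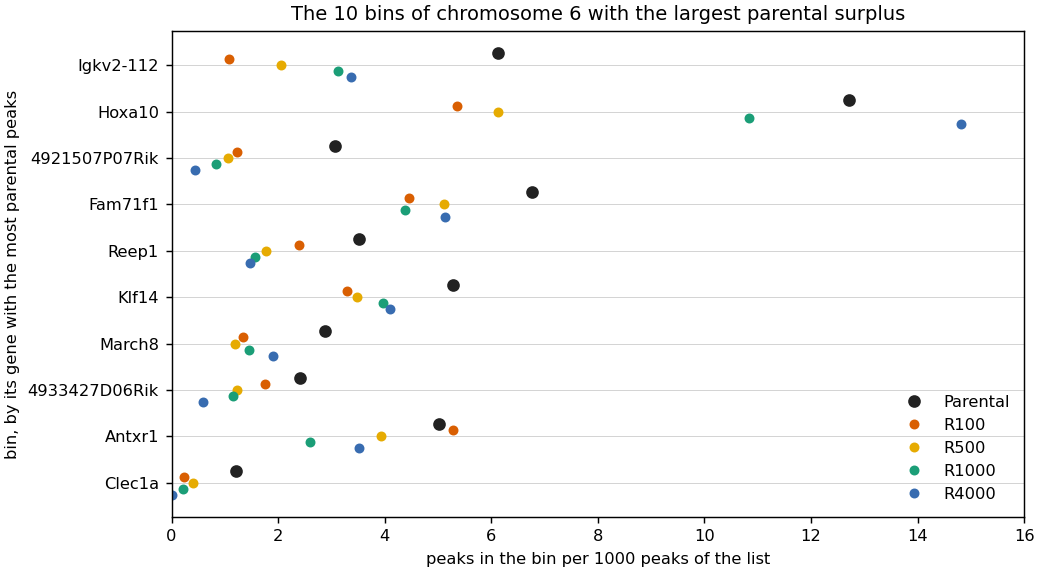
Peaks in each of the 10 bins of chromosome 6 with the largest parental surplus, per 1000 peaks of the list (horizontal axis), with 1 point per line and each bin named by its gene with the most parental peaks. The parental points (black) are the rightmost except in the Hoxa10 bin, where R4000 is at 14.8, and the Antxr1 bin, where R100 is at 5.28.

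Of the other 8 bins of the top 10, the one from 50 to 51 Mb had 33 parental peaks and 31, 23, 8 and 3 in R100, R500, R1000 and R4000, and 27 of the parental peaks (81.8%) had no resistant counterpart. Its leading gene was 4921507P07Rik, a gene known only by its clone name, with 12 parental peaks, while R100 had 2, R500 4, R1000 2 and R4000 0. The bin from 29 to 30 Mb had 73 parental peaks and 112, 112, 42 and 35, many of them at Fam71f1, Fam40b, Prrt4 and Ccdc136. The adjacent bin from 30 to 31 Mb had 57 and 83, 76, 38 and 28, with Klf14 and Mest. The bin from 71 to 72 Mb, with Reep1, which shapes the endoplasmic reticulum, had 38 and 60, 39, 15 and 10. Of its parental peaks 89.5% had no resistant counterpart. Over all parental peaks of the chromosome this share was 52.9%.

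The remaining bins had a smaller surplus. The bin named by March8 held 31 parental peaks and 34, 26, 14 and 13 in R100, R500, R1000 and R4000, and no gene there held more than 2 of them. March8 encodes a ubiquitin ligase. The bin from 89 to 90 Mb held 26 and 44, 27, 11 and 4, again with 1 peak per gene at most. The bin from 87 to 88 Mb held 54 and 133, 86, 25 and 24, and Antxr1, a receptor for anthrax toxin, had 32 of the parental peaks. There R100 had 5.28 peaks per 1000 of its list and the parental line 5.01, so the surplus of 12.7 came from the other lines. The bin of the C-type lectin-like receptors Clec1a, Clec12b and Clec1b held 13 and 6, 9, 2 and 0. In that bin 92.3% of the parental peaks had no resistant counterpart. Over the 10 bins with the largest surplus together, this share was 50.4%, against 54.6% in the other bins of chromosome 6. High shares were thus not a trait of these bins as a set.

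At the other end, the lowest bins had values from -4.05 to -6.83. The lowest, from 86 to 87 Mb with the growth factor gene Tgfa, had 9 parental peaks and 36, 31, 15 and 10. The bin from 88 to 89 Mb had 24 and 92, 65, 18 and 15. It includes Gata2, a transcription factor of blood stem and progenitor cells, which had the lowest surplus of the protein-coding genes, -5.49. Gata2 held 1 parental peak, and R100 had 17, R500 16, R1000 4 and R4000 4.

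By gene, 230 of the 1171 protein-coding genes (19.6%) held a parental peak in the gene or the 5 kb upstream, against 12.6% of those on other chromosomes. R100 had a peak at 512 of them, R500 at 417, R1000 at 257 and R4000 at 244. A surplus above 0 was found for 161 genes (13.7%) and below 0 for 430 (36.7%), and 580 were at 0. Genes with a surplus were thus fewer than those with a deficit. This split was not taken for the genes of other chromosomes, so it is not read as particular to chromosome 6. The R100 and R500 lists were longer than the parental list, so genes with few peaks fall below 0 easily. Peaks outside genes and over 5 kb from a TSS contributed 199 surplus peaks of the chromosome, or 82.6 with the expected number set within that class.

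After Jazf1, the genes with the largest surplus were Antxr1 at 11.7, 4921507P07Rik at 10.7 and Fam71f1 at 7.82. Antxr1 had 32 parental peaks and 73, 45, 12 and 9 in R100, R500, R1000 and R4000, so that R100 and R500 both held more peaks than the parental line. Pparg, the nuclear receptor of adipocyte differentiation, had 11 parental peaks and 11, 4, 2 and 3. Eif4e3, of the family of cap-binding translation factors, had 18 and 22, 18, 9 and 11. Cntn4, a neuronal adhesion molecule, had 8 and 5, 4, 1 and 1, and its parental number was above that of every resistant line. Reep1 had 11 and 13, 11, 3 and 3.
Frmd4b, with a FERM domain, had 9 and 9, 13, 3 and 0 peaks. Clec1a had 6 and 1, 3, 0 and 0. Kbtbd12, a kelch repeat gene in a bin with a deficit, had 10 and 14, 9, 5 and 3, and the coiled-coil gene Ccdc136 had 8 and 11, 8, 1 and 2. All of these 12 genes had fewer peaks in R1000 and in R4000 than in the parental line. The choice by surplus and the shorter R1000 and R4000 lists favour this, so it is only a description. R100, with the longest list, held at least as many as the parental line in 9 of them. Genes overlapping one another share peaks in these counts, and long genes such as Cntn4, at 1021651 bp, offer more room for peaks.

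**Figure D3:**
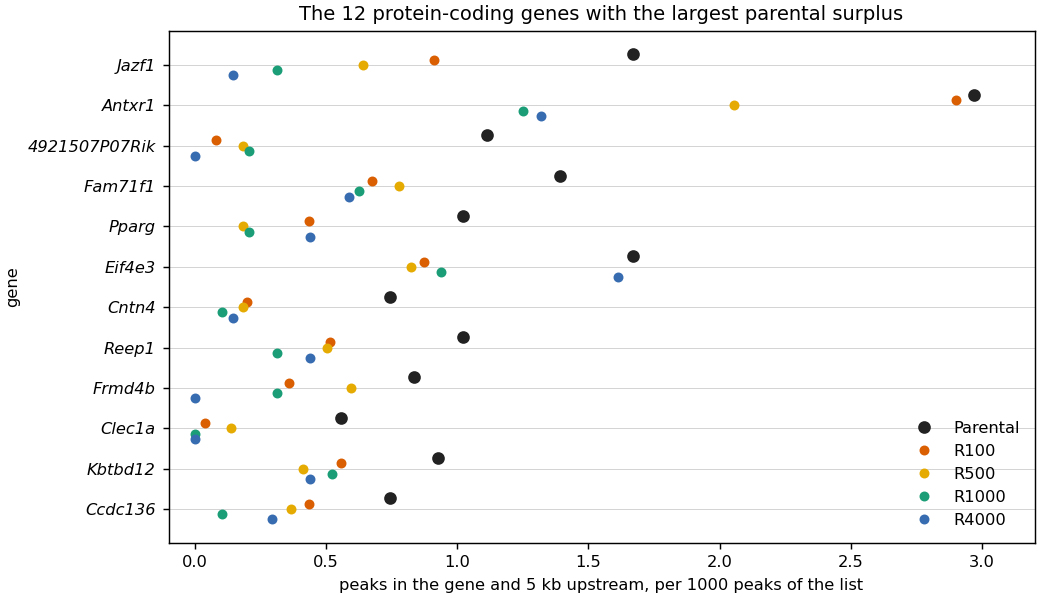
Peaks in the gene and its 5 kb upstream per 1000 peaks of the list (horizontal axis) for the 12 protein-coding genes of chromosome 6 with the largest parental surplus, with 1 point per line. The parental points (black) are the rightmost for every gene, as the choice of genes favours, and at Clec1a both R1000 and R4000 are at 0.

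A parental peak and no resistant peak was found at 12 genes (1.02% of the 1171), against 0.801% of protein-coding genes over the genome. The share is near the background. Of these, 11 had a single peak of 50 or 100 bp, among them Bmp10, a heart growth factor, Stra8, which is needed for meiosis, and Clec12a, a myeloid lectin receptor. Srgap3, a GTPase-activating protein of neurons, had 2. With peaks at least 100 bp wide there were 6 such genes. None of the 12 had more than 150 bp covered in the parental line.

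Of the developmental regulators outside the Hoxa cluster, 13 of 31 held a parental peak (41.9%), 8 had a surplus above 0 (25.8%), 12 below (38.7%) and 11 at 0, with a median of 0. Over all protein-coding genes of the chromosome these shares were 19.6% with a parental peak, 13.7% above 0 and 36.7% below. Tlx2, a homeobox gene of the enteric nervous system, had 7 parental peaks and 5, 5, 6 and 6 in R100, R500, R1000 and R4000. Vax2, of the developing eye, had 11 and 15, 17, 12 and 11. Emx1, of the forebrain, had 1 and 6, 7, 1 and 0.

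Tandem receptor families, 170 natural killer, lectin, taste, vomeronasal and olfactory receptor genes, held 25 distinct parental peaks and 20, 20, 12 and 6 in the resistant lines. The surplus was above 0 in 9 genes (5.29%, against 13.7% of all protein-coding genes of the chromosome) and below 0 in 2 (1.18%, against 36.7%), and 159 genes were at 0, as was the median. Among them Klrb1b, a natural killer cell receptor, had 4 parental peaks and 2, 1, 0 and 0. Clec1b, a platelet and myeloid receptor, had 4 and 0, 3, 0 and 0. Whether reads from related members of these families could be told apart was not tested.

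Of 14 genes of imprinted regions, Klf14, Asb4 and Mest had a surplus above 0 (21.4%, against 13.7% of all protein-coding genes of the chromosome). In this list 1 gene was below 0 (7.14%, against 36.7%) and 10 were at 0, with a median of 0. Klf14, a maternally expressed Krüppel-like factor that also stands in the developmental list, had 7 parental peaks and 5, 6, 3 and 2. Mest, expressed from the paternal copy, carried one of the widest parental peaks, 2350 bp from 30686551 to 30688900, of which 2300, 2350, 2000 and 1650 bp were covered in R100, R500, R1000 and R4000. The annotation places 422 bp of this peak in exons. Starts were taken per gene, so whether another transcript of Mest starts within the peak was not looked at.

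Lymphoid and immune genes numbered 27, with 5 above 0 (18.5%), 13 below (48.1%), 9 at 0 and a median of 0. Over all protein-coding genes of the chromosome 13.7% were above 0 and 36.7% below. Tnfrsf1a, a receptor for tumour necrosis factor, had 10 parental peaks and 17, 16, 9 and 6. Cd4, the T-helper cell co-receptor, had 3 and 6, 2, 0 and 0. Gimap8, a GTPase gene of lymphocytes, carried a parental peak of 350 bp with 129 exonic bp that no resistant line overlapped.

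Of the 13 chromatin genes 3 were above 0 (23.1%) and 9 below (69.2%), with a median of -0.281. Over all protein-coding genes of the chromosome these shares were 13.7 and 36.7%. Ezh2 had no peak in the parental line, R100, R500 or R4000 and a single peak of 50 bp in R1000. Rybp, which encodes a subunit of polycomb repressive complex 1, had 2 parental peaks and 4, 3, 3 and 2. Kdm3a, a histone H3 lysine 9 demethylase gene, had a parental peak of 400 bp lying 4252 bp upstream of its TSS, with no resistant counterpart.
Of the 26 cell cycle, apoptosis and repair genes 4 were above 0 (15.4%) and 20 below (76.9%), with a median of -0.230. Ccnd2, which encodes cyclin D2, had 6 and 9, 9, 10 and 8. Cdkn1b, the cell cycle inhibitor p27, had 0 and 3, 1, 1 and 0. The 14 detoxification and transport genes held no parental peak, while 19.6% of all protein-coding genes of the chromosome did hold a parental peak. In this list 28.6% were below 0, and Abcg2, a drug efflux pump, had 2, 1, 1 and 0 in the resistant lines. With lists of R100 and R500 that were longer than the parental list, genes with 0 or 1 peak fall below 0 easily, so these counts are read beside the 36.7% of genes below 0 on the whole chromosome. No difference between the lists was tested.

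Within 5 kb of a transcription start site (TSS) lay 580 of the parental chromosome 6 peaks (44.3%), against 55.8% of the parental peaks on other chromosomes. Within 2 kb the shares were 27.8 and 37.7%. In R100, R500, R1000 and R4000 the shares on chromosome 6 were 48.6, 48.8, 60.8 and 65.8%. With the expected number set from list totals, peaks outside genes and over 5 kb from a TSS contributed 199 of the 316 surplus peaks. Peaks in genes over 5 kb from a TSS contributed 95.3 and those within 5 kb 21.9.

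The parental list as a whole was also richer in distal peaks, so the share on chromosome 6 was taken within each class. Of all parental peaks outside genes and over 5 kb from a TSS, 15.2% were on chromosome 6 (95% interval 14.0 to 16.5%), against 12.8, 11.9, 11.97 and 13.3% in R100, R500, R1000 and R4000. Of those within 5 kb of a TSS, 9.89% were (9.15 to 10.7%), against 7.54, 7.22, 7.90 and 9.02%. In genes over 5 kb from a TSS it was 14.3%, against 11.6, 10.1, 8.72 and 10.7%. The parental share was thus the highest in each class. With expected numbers set within the classes, the surplus was 273 peaks. Of these, 115 lay within 5 kb of a TSS, 82.6 outside genes and 75.2 in genes over 5 kb from a TSS. The class near a TSS was then the largest, so the order of the classes depends on how the expected number is set.

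**Figure D4:**
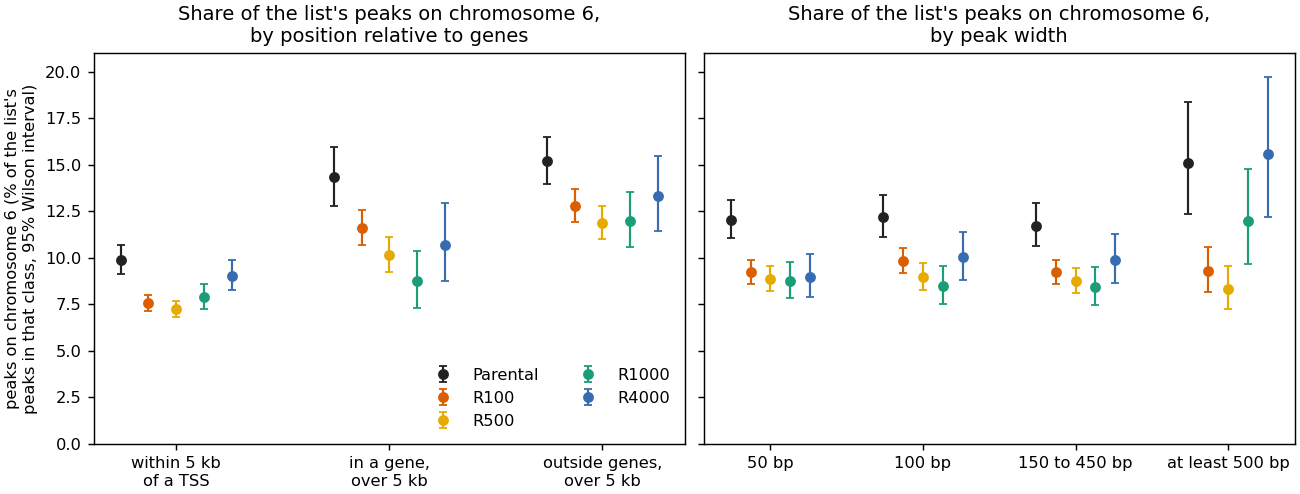
Percent of a list's peaks that lie on chromosome 6 (vertical axis) by position relative to genes (left) and by peak width (right), with 1 point per line and bars for the 95% Wilson interval, which covers counting error only. The parental points (black) are the highest in every class but that of at least 500 bp, where R4000 is at 15.6%.

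By width, the parental share was 12.04% of the peaks of 50 bp, 12.2% of those of 100 bp, 11.7% of those of 150 to 450 bp and 15.1% of those of at least 500 bp (95% interval 12.4 to 18.4%). In R1000 the share was 12% and in R4000 15.6% of peaks of at least 500 bp, so for wide peaks R4000 did not lie below the parental line. In R100 and R500 it was 9.29 and 8.32%. The class held 83 parental and 55 R4000 peaks on the chromosome and is the least precise.

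Of the parental peaks on chromosome 6, 693 (52.9%, 95% interval 50.2 to 55.6%) overlapped no peak of any resistant line, against 46.1% of the parental peaks over the genome. Other chromosomes ranged from 31.8% on chromosome 15 to 61.5% on chromosome 16, so chromosome 6 was within their range. With any resistant peak within 1000 bp counted as a counterpart, 26.0% on chromosome 6 had none. These parental-only peaks were narrow, with a median of 50 bp and none wider than 450 bp. Of them 28.9% lay within 5 kb of a TSS, against 61.6% of the peaks with a resistant counterpart. Their GC content was 44.7% with 0.916 CpG per 100 bp, against 51.6% and 3.17, and the whole chromosome had 41.4% and 0.797. The same order was seen on the other chromosomes, where parental-only peaks also had a median of 50 bp. There 35.9% lay within 5 kb of a TSS, against 72.3% of those with a counterpart. The GC content there was 45.4 against 53.4%, with 1.11 against 3.65 CpG per 100 bp. The 3 parental-only windows shown above held 0, 0.667 and 0.400 CpG per 100 bp. Of the windows present in all 5 lines, that in Hoxa7 held 1.33 and that in the kappa locus 0.333.

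The median distance of the parental-only peaks to the nearest resistant peak was 0.900 kb, 51.8% lay within 1 kb and 80.8% within 5 kb, which left 133 peaks farther away. On other chromosomes the median was 1.15 kb, with 71.2% within 5 kb. The distance was taken to any resistant peak, of any width.

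The share found again depended on width. Of the 482 parental peaks of 50 bp, R100 had 18.3%, R500 19.1%, R1000 6.43% and R4000 4.98%. Of the 83 of at least 500 bp, 95.2, 97.6, 92.8 and 88.0% were found. Fewer parental peaks of all widths were found in R100 on chromosome 6 (35.4%) than on other chromosomes (42.9%), with the same order in R500 (37.2 and 44.3%) and R1000 (24.0 and 27.4%). In R4000 the shares were close, at 18.5% (16.5 to 20.7%) and 19.7%.

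Together the lists made 4551 regions on chromosome 6, of which 166 had a peak in all 5 lines and 3379 had only resistant peaks. In the regions with a peak in all lines, the parental line covered a median of 400 bp, R100 and R500 800 bp each, R1000 375 bp and R4000 300 bp. The order of bins by peaks was alike between lines. Over the 106 bins with a peak in any line, Spearman's rho between the parental line and R100, R500, R1000 and R4000 was 0.900, 0.927, 0.909 and 0.866, as a description, since neighbouring bins and the shared sequence of the chromosome make them dependent. A peak was present in 82 bins of the parental line and in 101, 91, 79 and 74 bins of the resistant lines in the same order.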

How the data were processed

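H3K27me3 ChIP-seq was analysed in 5 lines, with 1 peak list each. Reduced representation bisulfite sequencing of the same lines was not analysed here. Reads of 50 bp were obtained from input and precipitated chromatin, and windows along the genome were called as peaks by Poisson statistics. The submitters' processing notes name Bowtie and mm9. The values the authors deposited are other than counts or scores, namely a chromosome with a start and an end in base pairs for every peak. Whether the 2 replicates the study gives per line were pooled, and the threshold of the lists, are not given in the sources used here. Depth per sample is therefore unknown.

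The R100 and R500 lists hold each row 2 times, and distinct rows were used. Starts and ends lie on a grid of 50 bp. A peak was assigned to a bin by its midpoint and to a gene of the GENCODE annotation of NCBIM37 (37310 genes) by overlap with the gene body or the 5 kb upstream, and an overlap of at least 1 bp was counted as shared. The surplus of a bin or gene is the parental number less the parental list total times the mean over the 4 resistant lists of the share of the list there. Wilson intervals at 95% cover counting error only. Gene lists were drawn by symbol. The members and lists were chosen with earlier results of these data known. The genes named are those with the most parental peaks in the 10 bins with the largest surplus, the 12 protein-coding genes with the largest surplus, genes at the 5 widest parental peaks without a resistant overlap, and list members with a peak, of which some are not reported here. Genes of the lowest bins, at the widest peaks of the chromosome and among the parental-only genes, and Cttn, were chosen after their values were seen, as was the last sequence. Sequence was read with pysam 0.24.0 and transcripts were searched with blastn 2.17.0 at an expectation of at most 1e-20. Python 3.11.15, numpy 2.4.6, pandas 2.3.3, scipy 1.17.1 and matplotlib 3.10.9 were used. Counting of overlaps was checked on simulated intervals, of which 0 of 1000 differed from a base-by-base count. Alternatives were another reference among the resistant lines, a width of at least 100 bp, peaks within 1000 bp joined, covered length, autosomes only, other bins, other overlaps and other distances.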

Additional observations from a re-analysis of the deposited data

How the results depend on the processing

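Of the 30 alternative values, 15 stayed within the interval or range of the main value. Only the surplus could change sign, since the other values are shares or counts, and it stayed above 0 in every alternative. The parental share of 12.2% was 13.4% by covered base pairs and, in an alternative chosen after seeing the data, 10.4% without the kappa locus and the Hoxa cluster, where the mean of the resistant lines was 8.02%. The surplus of 316 peaks was 243 against R4000 alone, 194 for peaks at least 100 bp wide, 199 with peaks within 1000 bp joined and, added after seeing the data, 245 with each list reduced to as many of its widest peaks as the shortest list holds. Part of the smaller values follows from fewer peaks being counted. The 10 bins held 47.8% of the positive surplus with bins shifted by 500 kb and 63.4% by covered base pairs, against 63.7% in 20 bins of 500 kb and 44.2% in 5 bins of 2 Mb. Parental peaks without a resistant counterpart were 26.0% when any resistant peak within 1000 bp counted, with 23.8% on other chromosomes, and 41.5% for parental peaks at least 100 bp wide, with 30.2% elsewhere. The share near a TSS was 27.8% within 2 kb and 37.6% for protein-coding genes only. Genes with a parental peak and none in a resistant line numbered 6 with peaks at least 100 bp wide. Other alternatives, such as 55 to 63 bins with a surplus, gave no change of this kind. No paired analysis was possible because each line has 1 list. The unknown depth of each list limits every count of narrow peaks, and no value here has a spread between replicates.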
